A study of Arabidopsis thaliana with 9 samples.

Results

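The genes described here are 43 loci of Arabidopsis thaliana that encode the machinery of DNA replication and of mitosis, taken by locus identifier from the 27655 genes of the deposited table. They were chosen by name, with earlier results of these data known. Of them 18 act in DNA replication or its control (S-phase genes) and 23 in mitosis or cytokinesis (mitotic genes). The other 2 are D-type cyclins of cell cycle entry. All 43 passed the filter of a mean of at least 1 TPM (the transcript share of a gene, scaled to a fixed total in each library) over the libraries, which left 18544 genes to test.

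Messenger RNA was profiled in whole seedlings at the age of 10 days, grown at 22 °C with 16 h light and 8 h dark. The lines were h3.3ko;HTR5 G34R (called G34R) and h3.3ko;HTR5 G34W (called G34W), and the wild type was Col, with 3 libraries in each group. HTR5 encodes histone H3.3, and the names of the lines give the change at its glycine: to arginine (G34R) or to tryptophan (G34W). The label h3.3ko stands on both lines and not on the wild type. No h3.3ko line that carries the normal HTR5 was analysed here. In every comparison with wild type the change at the glycine and the h3.3ko background therefore cannot be told apart, whereas G34W against G34R sets 2 lines of the same label side by side. The labels do not name the promoter of the altered HTR5 or the number of clones behind a line. Nor do they tell whether each library came from its own sowing, and a p-value here sets a difference against a spread among libraries that may be technical.

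A dividing plant cell copies its DNA in S phase and separates the copies in mitosis. Before S phase, ORC, CDC6 and CDT1 load the MCM2 to MCM7 ring onto origins; CDC45 helps turn the ring into an active helicase, PCNA clamps the polymerases to DNA, and ribonucleotide reductase makes the nucleotides. Many of these genes are switched on by E2F factors, which the retinoblastoma protein RBR1 holds back. B-type cyclins, A2-type cyclins and the plant-specific B-type CDKs drive entry into mitosis, CDC20 activates the ubiquitin ligase that ends it, and KNOLLE, HINKEL and MAP65-3 build the cell plate. The genes of this late wave often carry the MSA element, which MYB3R factors bind. In a seedling such cells sit in the meristems, young leaves and the stomatal lineage, so the transcripts come from a small share of the tissue, and in whole seedlings more dividing cells and more RNA per cell cannot be told apart.

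The promoters of the 2 groups of genes differ in letters, and the windows shown here are those of MCM genes that differed between the lines and of B-type cyclins that were higher in both lines than in wild type. Sequence came from RefSeq's TAIR10.1 assembly, within the 250 bases upstream of each gene's annotated start, on the gene's own strand, 5′ to 3′. The octamers TTTCCCGC, TTTCGCGC, TTTGCCGC and TTTGGCGC were searched as E2F-like motifs, on both strands. They were present upstream of 5 of the 18 S-phase genes (27.8%), 0 of the 23 mitotic genes and 387 of 27444 nuclear genes (1.41%). The 5 genes are MCM2 to MCM6, and the octamer is in capitals in each:
MCM2: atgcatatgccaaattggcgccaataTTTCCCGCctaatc
MCM3: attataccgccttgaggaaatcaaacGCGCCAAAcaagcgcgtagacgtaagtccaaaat
MCM4: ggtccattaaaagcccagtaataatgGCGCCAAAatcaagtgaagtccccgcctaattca
MCM5: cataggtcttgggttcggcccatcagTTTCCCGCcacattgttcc
MCM6: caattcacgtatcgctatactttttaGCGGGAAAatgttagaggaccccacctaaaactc

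The windows lie at chr1:16970174-16970213 (plus strand) for MCM2, chr5:18773843-18773902 (minus strand) for MCM3, chr2:7130731-7130790 (minus strand) for MCM4, chr2:3527501-3527545 (minus strand) for MCM5 and chr5:18010680-18010739 (minus strand) for MCM6. Counted from the base of the octamer farthest from the gene, the matches are 14, 170, 35, 19 and 46 bases upstream of the annotated starts of MCM2, MCM3, MCM4, MCM5 and MCM6. MCM2 and MCM5 share the same octamer in the same orientation, while MCM3 and MCM4 carry another octamer on the opposite strand. A match is a description of letters and not a binding site.

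The MSA core AACGG, searched on both strands, was present upstream of 13 of the 23 mitotic genes (56.5%), 4 of the 18 S-phase genes (22.2%) and 5645 of the 27444 nuclear genes (20.6%). B-type cyclins carried the most copies: CYCB1;2 had 4, and CYCB1;1, CYCB1;3, CYCB2;1, CYCB2;2 and CYCB2;3 had 3 each. They are shown because 6 of the 8 B-type cyclins hold such repeats and 7 of the 8 passed the test as higher in both lines. The core, or CCGTT where it lies on the opposite strand, is in capitals:
CYCB1;1: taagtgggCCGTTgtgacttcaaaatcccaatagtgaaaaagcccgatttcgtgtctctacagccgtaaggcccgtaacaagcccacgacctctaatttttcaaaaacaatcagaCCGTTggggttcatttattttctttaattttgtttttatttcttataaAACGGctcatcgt
CYCB1;2: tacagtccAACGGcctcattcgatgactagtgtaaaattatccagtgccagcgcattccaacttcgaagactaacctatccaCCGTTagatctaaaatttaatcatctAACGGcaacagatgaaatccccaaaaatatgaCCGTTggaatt
CYCB1;3: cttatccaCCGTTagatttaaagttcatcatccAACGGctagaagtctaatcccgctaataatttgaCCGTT
CYCB2;1: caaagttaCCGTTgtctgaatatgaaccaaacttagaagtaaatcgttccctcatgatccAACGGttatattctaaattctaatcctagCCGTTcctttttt
CYCB2;2: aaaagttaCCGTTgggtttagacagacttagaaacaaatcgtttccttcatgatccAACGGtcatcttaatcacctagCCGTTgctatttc
CYCB2;3: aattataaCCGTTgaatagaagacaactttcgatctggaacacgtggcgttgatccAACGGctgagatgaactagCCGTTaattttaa

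These windows are chr4:17624309-17624484 (minus strand) for CYCB1;1, chr5:1861704-1861854 (minus strand) for CYCB1;2, chr3:3627274-3627345 (minus strand) for CYCB1;3, chr2:7663910-7664011 (plus strand) for CYCB2;1, chr4:16901416-16901506 (plus strand) for CYCB2;2 and chr1:7137863-7137950 (minus strand) for CYCB2;3. The 3 CYCB2 windows and that of CYCB1;3 hold their cores in the same order of strands. The middle core is on the gene's own strand and the outer ones are on the other. The site II letters TGGGCC and TGGGCT, known from promoters of genes active in dividing cells, had the reverse distribution: 9 of 18 S-phase genes (50.0%) held one, against 2 of 23 mitotic genes (8.7%) and 5265 nuclear genes (19.2%). In CYCB1;1 the first core shares 2 letters with a site II match, the 1 overlap between matches among the 43 genes. Among the D-type cyclins, CYCD3;3 held an E2F-like octamer and CYCD3;1 an MSA core and a site II motif.

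**Figure D1:**
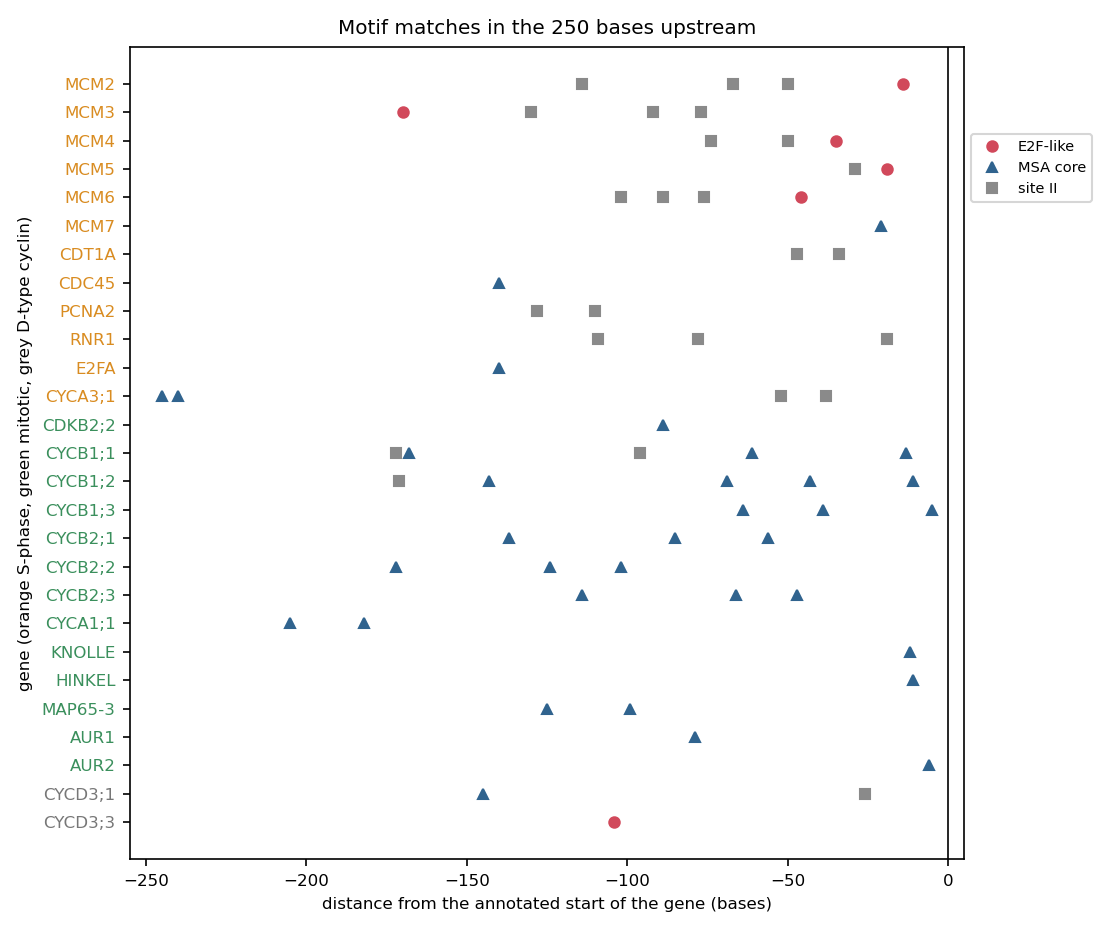
Positions of the motif matches in the 250 bases upstream of the annotated start, with the distance from the start in bases on the horizontal axis, 1 line for each gene that holds a match, and circles, triangles and squares for E2F-like, MSA core and site II matches. E2F-like circles stand on 5 S-phase genes and on CYCD3;3, and MSA triangles crowd on the B-type cyclins.

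The H3.3 genes differed in how far they matched the label h3.3ko: HTR8 stood at 3.92 to 5.86 TPM in G34R and 4.65 to 6.69 TPM in G34W, against 207 to 214 TPM in wild type. HTR4 was lower but still present, at 132 to 137 TPM in G34R and 152 to 165 TPM in G34W, against 408 to 438 TPM in wild type. HTR5 stood at 353 to 360 TPM in G34R, 368 to 390 TPM in G34W and 331 to 335 TPM in wild type, and TPM do not show the change at its glycine. Between 12861968 and 14699586 reads per library were recovered from the TPM, and the 43 genes rested on 9 to 996 reads each in a library. TPM sum to the same total in each library, and the median gene of the table was 0.10 higher in G34R than in wild type, 0.21 higher in G34W than in wild type and 0.07 higher in G34W than in G34R on the log2 scale. After the libraries were scaled by median ratios, these medians were -0.01, 0.01 and -0.01. The split of all genes also moved: 6419 higher and 3060 lower in G34R as deposited were 4665 and 4911 after scaling, 8300 and 2427 in G34W were 4500 and 4509, and 3982 and 2192 between the lines were 2492 and 3250. For this reason the counts of the 43 genes in each comparison are given on both scales. Counts and calls of the other gene lists and of the markers are given on the deposited scale only. Fold changes are log2 differences of TPM + 1, which understates changes of weakly expressed genes, given ± SE with n = 3 libraries per group and adjusted p from limma over all genes tested.

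In G34R 14 of the 23 mitotic genes were called higher than in wild type on the deposited scale, and 1 of the 18 S-phase genes was. Of the 43 genes 16 were called higher in G34R, against a background of 34.6% of all genes tested, and 1 was called lower, against a background of 16.5%. The 16 were 14 of the 23 mitotic genes, 1 S-phase gene and CYCD3;3, and the 1 lower gene was RNR1. Taken over all 43 genes the share called higher was near that of all genes, and the difference lay between the 2 groups of genes. The median change of the mitotic genes was 0.35, that of the S-phase genes -0.08, and that of all genes 0.10. With median-ratio scaling 9 mitotic genes were called higher and 0 S-phase genes, and 7 S-phase genes were called lower. With quantile normalization 4 mitotic genes and 0 S-phase genes were called higher, and 7 S-phase genes lower. Of all 18544 genes tested 4665 were called higher and 4911 lower with median-ratio scaling, and 4606 and 4941 with quantile normalization. After quantile normalization the share of mitotic genes called higher was thus below that of all genes. Without wild type replicate 2 the count of higher genes was 10 in place of 16, and without G34R replicate 1 or 2 or wild type replicate 1 the count of lower genes was 0 in place of 1.

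On the deposited scale genes of both groups were called higher in G34W. Of the 43 genes 34 were called higher in G34W than in wild type, against a background of 44.8%, and 2 were called lower, CDC6 and AUR2, against a background of 13.1%. The 34 were 22 of the 23 mitotic genes, 11 of the 18 S-phase genes and CYCD3;3. The median change was 0.56 for mitotic genes, 0.38 for S-phase genes and 0.21 for all genes. With median-ratio scaling 17 mitotic genes and 4 S-phase genes were called higher, and with quantile normalization 15 and 5, all of them called before scaling. Of all 18544 genes tested 4500 were called higher with median-ratio scaling and 4680 with quantile normalization. The share of S-phase genes called higher was thus near that of all genes on both scales. Both lines were set against the same wild-type libraries, so the 2 comparisons are not independent of each other.

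The comparison of G34W with G34R used the wild-type libraries only for the estimate of the spread, the filter of genes and, where applied, the scaling. There 14 genes were called higher in G34W, against a background of 21.5%, and 1 was called lower, AUR2, against a background of 11.8%. Of the 14, 10 were S-phase genes and 4 were mitotic genes: CDKB2;1, CYCA1;1, CDC20.1 and CDC20.2. The median difference was 0.39 for S-phase genes, 0.20 for mitotic genes and 0.07 for all genes. After median-ratio scaling 9 of the 10 S-phase genes and the 4 mitotic genes were called still, and the counts were the same with quantile normalization. Of all 18544 genes tested 2492 were called higher with median-ratio scaling and 2992 with quantile normalization. The lower call of AUR2 did not hold without G34R replicate 2 (adjusted p = 0.124), G34W replicate 1 (adjusted p = 0.0567) or G34W replicate 3 (adjusted p = 0.0827) in limma's test.

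**Figure D2:**
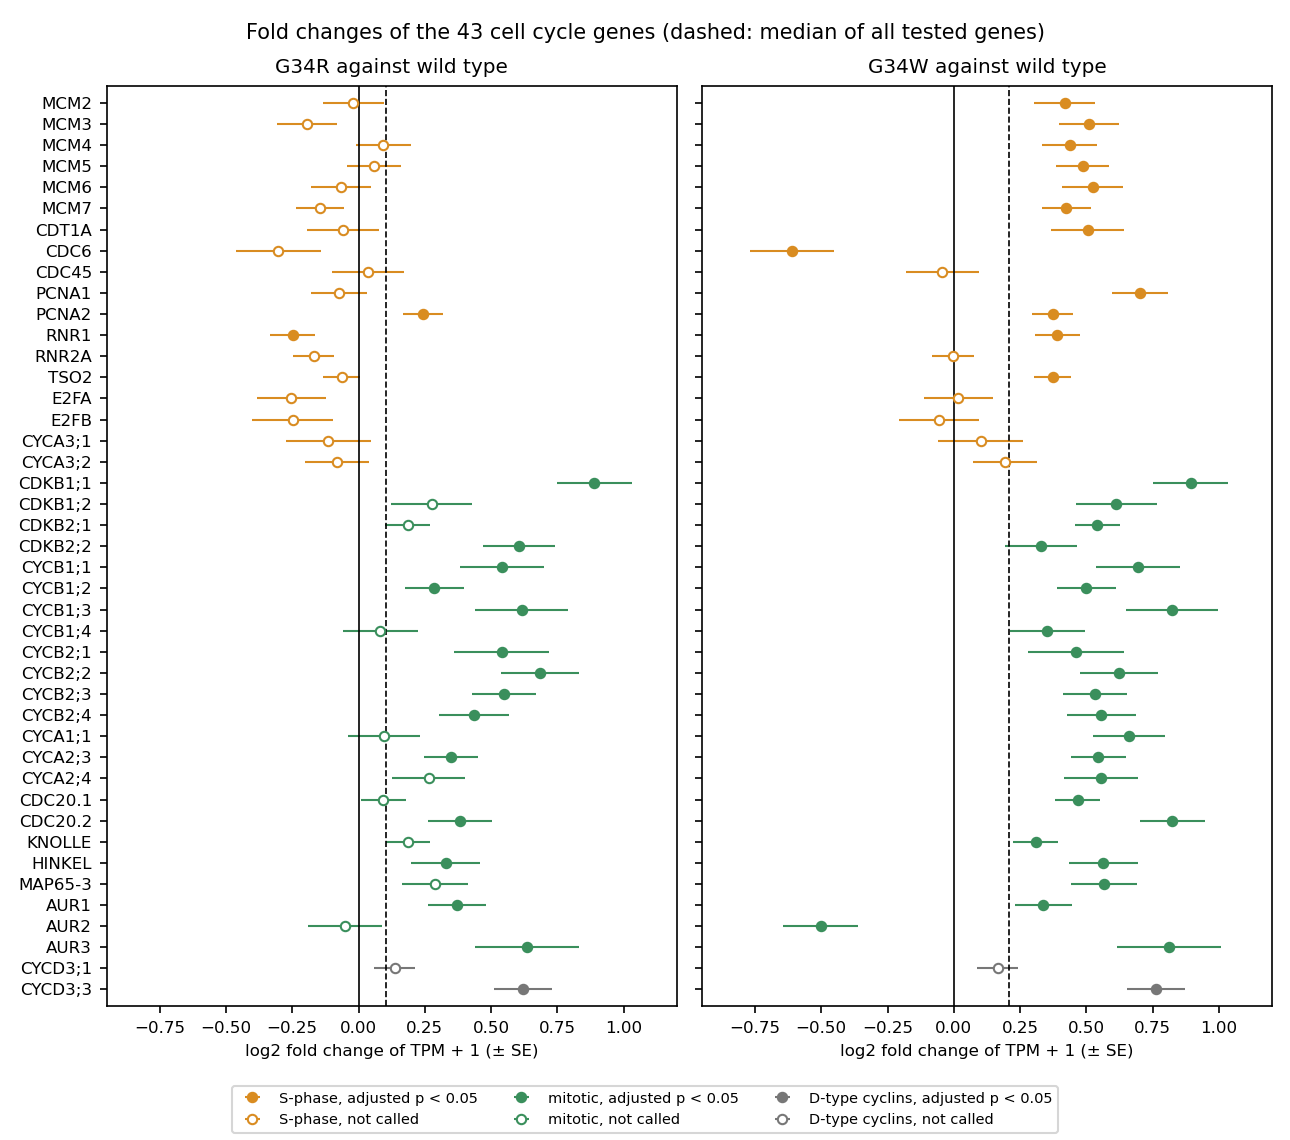
Log2 fold change of TPM + 1 with its SE for each of the 43 genes, in G34R against wild type on the left and in G34W against wild type on the right; filled points passed an adjusted p of 0.05 and the dashed line is the median of all tested genes (0.10 and 0.21). Most green mitotic points lie right of the dashed line in both panels, whereas the orange S-phase points lie mostly left of it in G34R and many lie right of it in G34W.

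The 6 genes of the MCM ring are the clearest case of a group that differed between the lines. None of the 6 was called in G34R against wild type (median -0.04), all 6 were called higher in G34W than in wild type (0.42 to 0.52), and all 6 were called higher in G34W than in G34R (0.34 to 0.70). MCM3 (AT5G46280) had 7.88, 8.00 and 9.30 TPM in G34R, 11.9, 16.1 and 15.1 TPM in G34W and 10.0, 9.93 and 9.21 TPM in wild type. MCM7 (AT4G02060) had 10.1, 10.5 and 11.2 TPM in G34R, 16.8, 16.0 and 15.9 TPM in G34W and 12.5, 12.5 and 10.6 TPM in wild type. For both genes the G34W libraries were above every other library.

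MCM3 was 0.70 ± 0.11 higher in G34W than in G34R (adjusted p = 0.000169), and 0.51 ± 0.11 above wild type (adjusted p = 0.00115), with -0.19 ± 0.11 in G34R against wild type (adjusted p = 0.17). MCM7 was 0.57 ± 0.09 higher in G34W than in G34R (adjusted p = 0.000159) and 0.42 ± 0.09 higher than in wild type (adjusted p = 0.000869), with -0.15 ± 0.09 in G34R (adjusted p = 0.2). MCM7 shares 437 bases (8.82% of its span) with a gene on the opposite strand, AT4G02050, which gave 0.31, 0.68 and 0.37 in the same 3 comparisons; whether counting used strand is not given, so reads there cannot be told apart.

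MCM2 (AT1G44900) had 6.82, 8.45 and 8.41 TPM in G34R, 10.8, 11.0 and 11.2 TPM in G34W and 9.41, 7.42 and 7.26 TPM in wild type. MCM5 (AT2G07690) had 8.73, 10.5 and 11.2 TPM in G34R, 14.8, 13.8 and 13.2 TPM in G34W and 9.74, 9.54 and 9.69 TPM in wild type. MCM6 (AT5G44635) had 5.34, 5.40 and 4.67 TPM in G34R, 8.35, 8.55 and 7.79 TPM in G34W and 5.91, 5.22 and 5.13 TPM in wild type. The G34R and wild-type values overlapped in these 3 genes, and the G34W values lay above both.

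In limma's test MCM2 was 0.44 ± 0.12 higher in G34W than in G34R (adjusted p = 0.00835), MCM5 0.43 ± 0.10 higher (adjusted p = 0.00376) and MCM6 0.59 ± 0.11 higher (adjusted p = 0.000827). MCM4 (AT2G16440) was 0.34 ± 0.10 higher (adjusted p = 0.0175), which no longer passed when G34R replicate 2 (adjusted p = 0.0898) or G34W replicate 2 (adjusted p = 0.0599) was left out, or after median-ratio scaling (adjusted p = 0.0598). After that scaling 5 of the 6 genes were called higher in G34W than in G34R, 3 of the 6 were called higher in G34W than in wild type (MCM3, MCM5 and MCM6; with quantile normalization MCM6 had an adjusted p of 0.057), and MCM3 and MCM7 were called lower in G34R than in wild type. The 5 S-phase genes with an E2F-like octamer had medians of -0.02 in G34R, 0.49 in G34W and 0.44 between the lines, against -0.11, 0.19 and 0.27 for the 13 without one; MCM7, which has none, and the 5 with one were called alike on the deposited scale.

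Of the 3 genes that load and start the ring, CDT1A was called higher in G34W, CDC6 lower, and CDC45 in neither direction. CDT1A (AT2G31270), a licensing factor, had 5.64, 6.41 and 5.30 TPM in G34R, 8.08, 9.18 and 9.83 TPM in G34W and 5.89, 4.95 and 7.55 TPM in wild type. It was 0.56 ± 0.14 higher in G34W than in G34R (adjusted p = 0.0045), and 0.50 ± 0.14 above wild type (adjusted p = 0.00487), a call that ended with median-ratio scaling (adjusted p = 0.0727). CDC6 (AT2G29680), the other loader, fell by 0.61 ± 0.16 in G34W (adjusted p = 0.00378), and its value in G34R was -0.30 ± 0.16 (adjusted p = 0.125, and 0.0397 with median-ratio scaling). CDC6 had 1.64, 2.24 and 2.33 TPM in G34R, 1.52, 1.45 and 1.43 TPM in G34W and 2.80, 3.05 and 2.47 TPM in wild type, with no overlap of groups, and rested on 36 to 73 reads a library. CDC45 (AT3G25100), the helicase activator, was called in none of the 3 comparisons, with values of 0.04, -0.04 and -0.08.

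PCNA1 (AT1G07370) showed the largest difference between the lines among the 43 genes, and its close copy PCNA2 (AT2G29570) did not follow it. PCNA1 had 12.5, 12.4 and 11.8 TPM in G34R, 24.9, 18.4 and 22.3 TPM in G34W and 11.5, 14.1 and 13.3 TPM in wild type. PCNA2 had 19.2, 21.2 and 19.7 TPM in G34R, 20.4, 22.9 and 22.7 TPM in G34W and 16.8, 16.5 and 17.0 TPM in wild type. PCNA1 libraries of G34W stood apart from all others, whereas for PCNA2 the wild type stood apart from both lines.

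PCNA1 was 0.78 ± 0.11 higher in G34W than in G34R (adjusted p = 3.08e-05), and 0.70 ± 0.11 above wild type (adjusted p = 3.04e-05), with -0.07 ± 0.11 in G34R (adjusted p = 0.579). PCNA2 exceeded wild type by 0.24 ± 0.08 in G34R (adjusted p = 0.0137) and by 0.37 ± 0.08 in G34W (adjusted p = 0.000563), and both calls ended with median-ratio scaling (adjusted p = 0.179 and 0.0771), as did that in G34R without G34R replicate 2 (adjusted p = 0.0694). The coding sequences of the pair are 85.3% identical, so reads could be exchanged between them, and 15.1% of the span of PCNA2 lies over a gene on the opposite strand.

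Ribonucleotide reductase joins a large subunit, RNR1, to small subunits, RNR2A or TSO2. RNR1 (AT2G21790) had 19.4, 19.2 and 23.8 TPM in G34R, 32.3, 34.5 and 31.6 TPM in G34W and 25.0, 23.1 and 26.3 TPM in wild type. It was the 1 gene of the 43 called in opposite directions: it fell by 0.25 ± 0.08 in G34R (adjusted p = 0.0208) and rose by 0.39 ± 0.08 in G34W (adjusted p = 0.000867), and it was 0.64 ± 0.08 higher in G34W than in G34R (adjusted p = 2.28e-05). G34R replicate 3 overlapped the wild type, and the fall was lost without G34R replicate 1 (adjusted p = 0.0774), G34R replicate 2 (adjusted p = 0.0976), wild type replicate 1 (adjusted p = 0.0535) or wild type replicate 3 (adjusted p = 0.0881). With median-ratio scaling the fall held (adjusted p = 0.000793) and the rise in G34W was not called (adjusted p = 0.0685).

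TSO2 (AT3G27060), the small subunit known for its strong expression in dividing cells, had 44.7, 41.8 and 43.7 TPM in G34R, 60.3, 55.5 and 61.7 TPM in G34W and 51.4, 43.8 and 41.6 TPM in wild type. It was 0.44 ± 0.07 higher in G34W than in G34R (adjusted p = 0.000181), and 0.37 ± 0.07 above wild type (adjusted p = 0.000305), with -0.06 ± 0.07 in G34R. With median-ratio scaling TSO2 was not called in G34W against wild type (adjusted p = 0.0985) and was called lower in G34R (-0.19, adjusted p = 0.0414). RNR2A (AT3G23580), the other small subunit, was called in no comparison as deposited, with -0.17, -0.00 and 0.16. Without G34R replicate 3 it was called lower in G34R than in wild type (adjusted p = 0.0158) and higher in G34W than in G34R (adjusted p = 0.0255), and without wild type replicate 3 lower in G34R (adjusted p = 0.0455). With median-ratio scaling RNR2A was called lower in both lines than in wild type, by -0.29 in G34R (adjusted p = 0.00349) and -0.22 in G34W (adjusted p = 0.0227).

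The E2F factors themselves and the A3-type cyclins did not pass the test. E2FA (AT2G36010) had 3.68, 3.94 and 3.48 TPM in G34R, 4.21, 4.48 and 5.37 TPM in G34W and 4.77, 4.27 and 4.78 TPM in wild type. Every G34R library was below every wild-type library, at -0.25 ± 0.13 (adjusted p = 0.116, and 0.0262 with median-ratio scaling), and G34W overlapped the wild type at 0.02 ± 0.13. E2FB (AT5G22220) had -0.25 in G34R and -0.06 in G34W. CYCA3;1 (AT5G43080) and CYCA3;2 (AT1G47210), cyclins tied to S phase, had -0.11 and -0.08 in G34R, 0.10 and 0.19 in G34W, and 0.22 and 0.27 between the lines. CYCA3;2 passed between the lines without wild type replicate 2 (adjusted p = 0.0435).

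**Figure D3:**
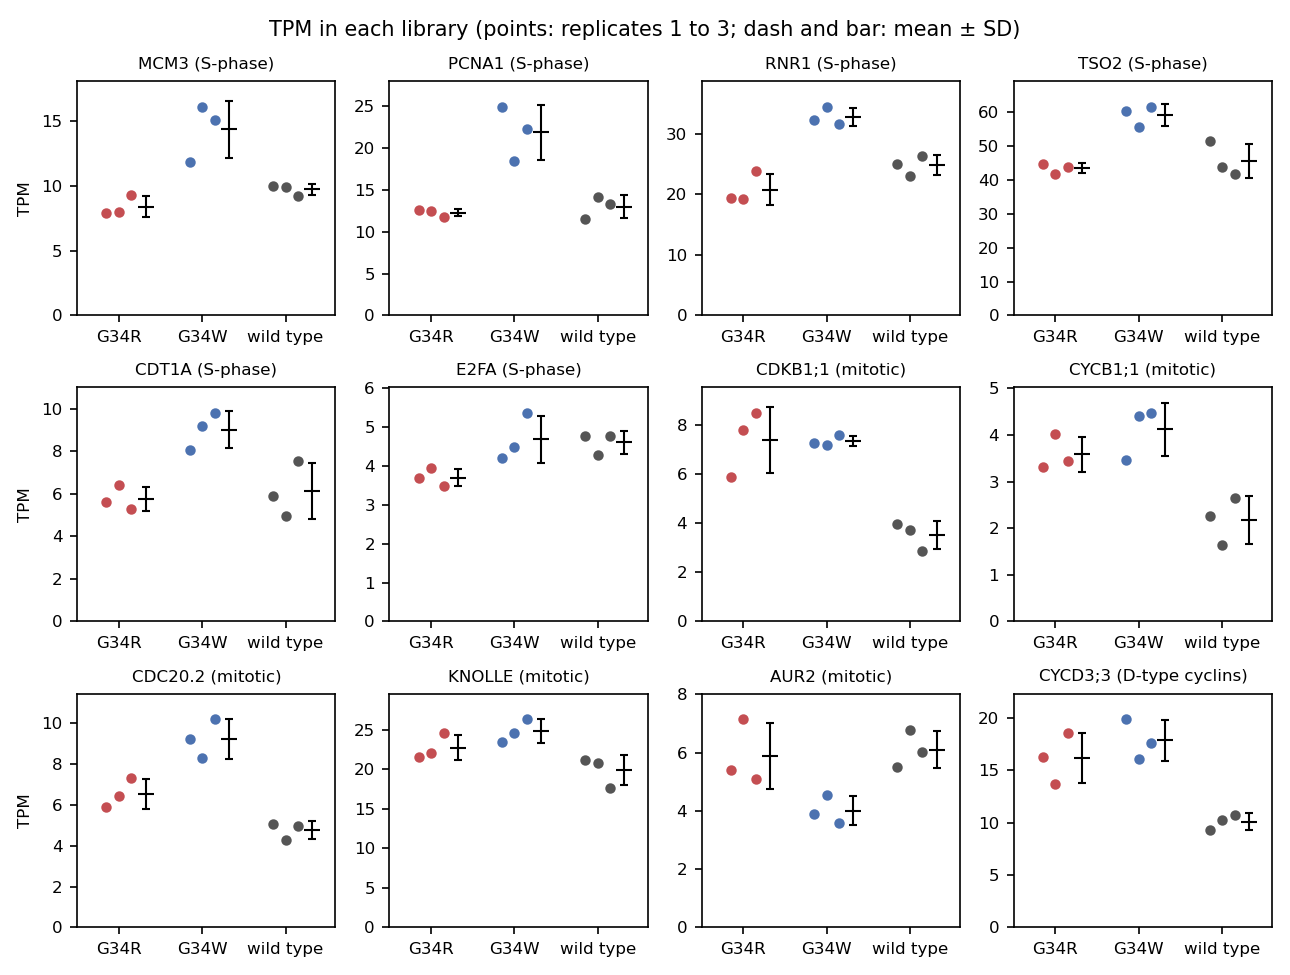
TPM of 12 of the genes in each library, with G34R, G34W and wild type along the horizontal axis, points for replicates 1 to 3 in order, and the mean ± SD beside them. MCM3, PCNA1, RNR1, TSO2 and CDT1A stand high in G34W only, while CDKB1;1, CYCB1;1 and CYCD3;3 stand high in both lines.

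The B-type CDKs are kinases found in plants and active from late S phase into mitosis. Among them CDKB1;1 (AT3G54180) had the largest change in log2(TPM + 1) of all 43 genes in both lines. It had 5.89, 7.79 and 8.50 TPM in G34R, 7.26, 7.19 and 7.57 TPM in G34W and 3.97, 3.72 and 2.85 TPM in wild type, and neither line overlapped the wild type. CDKB1;1 exceeded wild type by 0.89 ± 0.14 in G34R (adjusted p = 5.7e-05) and by 0.89 ± 0.14 in G34W (adjusted p = 4.86e-05), and the lines were 0.00 ± 0.14 apart. It rested on 34 to 104 reads a library.

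The other B-type CDKs differed from CDKB1;1 and from each other. CDKB2;1 (AT1G76540) had 13.0, 13.8 and 13.8 TPM in G34R, 18.6, 17.1 and 17.3 TPM in G34W and 11.6, 12.7 and 11.1 TPM in wild type. It was 0.54 ± 0.08 higher in G34W than in wild type (adjusted p = 4.56e-05) and 0.35 ± 0.08 higher in G34W than in G34R (adjusted p = 0.00399), and the 0.19 ± 0.08 in G34R did not pass (adjusted p = 0.0777).

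Its copy CDKB2;2 (AT1G20930) gave 0.61 in G34R (adjusted p = 0.00126) and 0.33 in G34W (adjusted p = 0.0468). The G34W call of CDKB2;2 was lost with median-ratio scaling (adjusted p = 0.421) and without G34R replicate 2 or 3, G34W replicate 2 or 3, or wild type replicate 1 or 3 (adjusted p = 0.0508 to 0.193). CDKB1;2 (AT2G38620) was called in G34W, at 0.61 (adjusted p = 0.00257, and 0.0712 with quantile normalization), and not in G34R, at 0.28 (adjusted p = 0.143, and 0.0339 without G34R replicate 3). CDKB1;2 was 0.34 higher in G34W than in G34R without a call (adjusted p = 0.0988, and 0.035 without G34R replicate 1). A gene on the opposite strand lies over 17.4% of its span. Coding identity is 86.1% between the CDKB2 genes and 85.4% between the CDKB1 genes.

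On the deposited scale most B-type cyclins were called higher in both lines than in wild type, and none passed the test between the lines. Of the 8, 7 were called higher in G34R, 8 in G34W and 0 between the lines. CYCB1;1 (AT4G37490), which is also known to respond to DNA damage, had 3.31, 4.02 and 3.43 TPM in G34R, 3.47, 4.41 and 4.48 TPM in G34W and 2.25, 1.64 and 2.64 TPM in wild type. CYCB1;3 (AT3G11520) had 5.17, 5.19 and 4.63 TPM in G34R, 6.94, 4.49 and 6.61 TPM in G34W and 2.02, 3.24 and 3.68 TPM in wild type. In both genes the 3 wild-type libraries were below all 6 others.

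CYCB1;1 exceeded wild type by 0.54 ± 0.16 in G34R (adjusted p = 0.00914) and by 0.69 ± 0.16 in G34W (adjusted p = 0.00135). CYCB1;3 exceeded wild type by 0.61 ± 0.17 in G34R (adjusted p = 0.00746) and by 0.82 ± 0.17 in G34W (adjusted p = 0.000756). The 4 genes of the CYCB2 group, CYCB2;1 (AT2G17620), CYCB2;2 (AT4G35620), CYCB2;3 (AT1G20610) and CYCB2;4 (AT1G76310), gave 0.54, 0.68, 0.55 and 0.44 in G34R and 0.46, 0.62, 0.53 and 0.56 in G34W. CYCB1;2 (AT5G06150) gave 0.29 and 0.50, and CYCB1;4 (AT2G26760) gave 0.08 without a call in G34R (adjusted p = 0.652) and 0.35 in G34W (adjusted p = 0.0421).

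Several of these calls rested on single libraries. Without wild type replicate 2 the G34R calls of CYCB1;1 (adjusted p = 0.0515), CYCB1;2 (adjusted p = 0.209) and CYCB2;1 (adjusted p = 0.0676) were lost. CYCB1;2 was also lost in G34R without G34R replicate 2 or 3, G34W replicate 1 or wild type replicate 3 (adjusted p = 0.051 to 0.116), and CYCB2;1 without G34R replicate 3 (adjusted p = 0.0715). In G34W, CYCB1;4 was lost without G34W replicate 2 or wild type replicate 2 or 3 (adjusted p = 0.0872 to 0.211), and CYCB2;1 without G34W replicate 2 or 3 or wild type replicate 1 or 2 (adjusted p = 0.0666 to 0.124). CYCB2;1 rested on 9 to 31 reads a library, the fewest of the 43 genes. With median-ratio scaling 6 of the 8 were called higher in each line. With quantile normalization 6 were called in G34W and 2 in G34R, where CYCB1;1, CYCB1;2, CYCB1;3, CYCB2;1 and CYCB2;4 did not pass (adjusted p = 0.0517 to 0.253).

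The A1- and A2-type cyclins, which act before and during mitosis, did not all pass in both lines. CYCA1;1 (AT1G44110) had 5.98, 6.61 and 5.34 TPM in G34R, 8.75, 10.8 and 8.45 TPM in G34W and 5.65, 6.51 and 4.54 TPM in wild type, so that G34R overlapped the wild type and G34W did not. It was 0.66 ± 0.14 higher in G34W than in wild type (adjusted p = 0.000596) and 0.56 ± 0.14 higher in G34W than in G34R (adjusted p = 0.00431).

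CYCA2;3 (AT1G15570), a partner of CDKB1;1 that holds back endoreduplication, had 9.03, 9.22 and 10.3 TPM in G34R, 10.5, 11.0 and 11.7 TPM in G34W and 6.60, 7.46 and 7.72 TPM in wild type. It was 0.35 ± 0.10 above wild type in G34R (adjusted p = 0.00893, and 0.0501 with median-ratio scaling) and 0.55 ± 0.10 above it in G34W (adjusted p = 0.000258). CYCA2;4 (AT1G80370) gave 0.26 in G34R (adjusted p = 0.125) and 0.56 in G34W (adjusted p = 0.00272, and 0.0761 with quantile normalization).

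The CDC20 genes, activators of the anaphase-promoting complex, were the mitotic pair that differed between the lines. CDC20.1 (AT4G33270) and CDC20.2 (AT4G33260) lie side by side on the minus strand in TAIR10.1, at chr4:16044169-16046937 and chr4:16041006-16043549, and their coding sequences are 95.3% identical, so the split of reads between them is uncertain. CDC20.1 had 13.6, 13.3 and 14.6 TPM in G34R, 18.9, 18.5 and 17.2 TPM in G34W and 12.4, 13.8 and 12.6 TPM in wild type. CDC20.2 had 5.87, 6.44 and 7.30 TPM in G34R, 9.20, 8.27 and 10.2 TPM in G34W and 5.05, 4.28 and 4.98 TPM in wild type. G34W was above G34R in every library of both genes.

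CDC20.1 was 0.37 ± 0.08 higher in G34W than in G34R (adjusted p = 0.00261), and 0.47 ± 0.08 above wild type (adjusted p = 0.000169), with 0.09 ± 0.08 in G34R. CDC20.2 was 0.44 ± 0.12 higher in G34W than in G34R (adjusted p = 0.0103, and 0.0587 without G34W replicate 3), and 0.82 ± 0.12 above wild type (adjusted p = 2.47e-05). The 0.38 ± 0.12 of CDC20.2 in G34R (adjusted p = 0.0145) failed the test when G34R replicate 3 (adjusted p = 0.0577) or wild type replicate 2 (adjusted p = 0.0615) was left out. It also failed after median-ratio scaling (adjusted p = 0.0575).

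KNOLLE (AT1G08560), the syntaxin that fuses vesicles at the cell plate, had 21.6, 22.1 and 24.6 TPM in G34R, 23.5, 24.6 and 26.4 TPM in G34W and 21.2, 20.8 and 17.7 TPM in wild type. It was 0.31 ± 0.08 higher in G34W (adjusted p = 0.00501, but 0.336 after median-ratio scaling), and the 0.19 ± 0.08 in G34R did not pass (adjusted p = 0.0757). A gene on the opposite strand, AT1G08550, lies over 31.4% of its span at a mean of 24.7 TPM and gave -0.23 in G34R and -0.43 in G34W, so part of the reads could belong to either. HINKEL (AT1G18370), a kinesin of the phragmoplast, gave 0.33 in G34R (adjusted p = 0.0444) and 0.56 in G34W (adjusted p = 0.00152). MAP65-3 (AT5G51600), which bundles microtubules there, gave 0.29 in G34R (adjusted p = 0.061, and 0.0366 without G34R replicate 1 or 0.0399 without wild type replicate 1) and 0.57 in G34W (adjusted p = 0.000935). Between the lines MAP65-3 gave 0.28 without a call (adjusted p = 0.0947, and 0.0409 without G34R replicate 3). The G34R call of HINKEL was lost without any 1 of the libraries other than G34R replicate 1 (adjusted p = 0.0509 to 0.165) and with median-ratio scaling (adjusted p = 0.144).

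The Aurora kinases, which act on chromosomes and the spindle, did not move together. AUR1 (AT4G32830) gave 0.37 in G34R (adjusted p = 0.00902) and 0.34 in G34W (adjusted p = 0.0141, and 0.0586 without G34W replicate 1), and AUR3 (AT2G45490) gave 0.63 in G34R (adjusted p = 0.0125) and 0.81 in G34W (adjusted p = 0.00213). The G34R call of AUR3, on 13 to 53 reads a library, was lost without G34R replicate 1 (adjusted p = 0.0781) or wild type replicate 2 (adjusted p = 0.0606), and with quantile normalization (adjusted p = 0.0843). Both calls of AUR1 ended with median-ratio scaling, at 0.26 in G34R (adjusted p = 0.0527) and 0.15 in G34W (adjusted p = 0.272). AUR2 (AT2G25880) had 5.41, 7.17 and 5.08 TPM in G34R, 3.90, 4.55 and 3.58 TPM in G34W and 5.49, 6.76 and 6.03 TPM in wild type. It fell by 0.50 ± 0.14 in G34W (adjusted p = 0.00609), the 1 mitotic gene that fell in either line, and its value in G34R was -0.05. AUR1 and AUR2 share 70.1% of their coding letters. Genes on the opposite strand lie over 12.0% of the span of AUR1 and 24.8% of that of AUR2, the second listed at a mean of 0.00 TPM. The gene over AUR1, AT4G32840, had a mean of 5.19 TPM and gave 0.62 in G34R and 0.88 in G34W. Part of the reads of AUR1 could therefore belong to either gene.

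Of the D-type cyclins, which push cells into the cycle, 1 of the 2 was called. CYCD3;3 (AT3G50070) had 16.2, 13.7 and 18.5 TPM in G34R, 19.9, 16.0 and 17.6 TPM in G34W and 9.25, 10.3 and 10.8 TPM in wild type, with no overlap of either line with the wild type. The difference from wild type was 0.62 ± 0.11 for G34R (adjusted p = 0.000176) and 0.76 ± 0.11 for G34W (adjusted p = 2.03e-05). CYCD3;1 (AT4G34160) had 27.6, 26.8 and 25.4 TPM in G34R, 25.1, 26.8 and 29.7 TPM in G34W and 22.3, 25.7 and 24.4 TPM in wild type. It gave 0.14 ± 0.08 in G34R (adjusted p = 0.154) and 0.16 ± 0.08 in G34W (adjusted p = 0.079, and 0.0409 without G34W replicate 1).

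Set side by side, the S-phase genes trailed the mitotic genes in G34R and came closer to them in G34W. The S-phase median minus the mitotic median was -0.43 in G34R against wild type, -0.18 in G34W against wild type and 0.19 in G34W against G34R. Relative to the median of all genes, the S-phase genes lay at -0.18 in G34R and 0.17 in G34W, and the mitotic genes at 0.25 in G34R and 0.35 in G34W. The gap kept its sign in every setting tried, from -0.48 to -0.35 in G34R, from -0.26 to -0.10 in G34W and from 0.17 to 0.23 between the lines. The shrinkage to -0.10 in G34W came with a filter of 5 TPM, which removed 5 S-phase and 9 mitotic genes. These values describe 2 lists that were chosen with results known, and no test was made of them. For the other replication and other mitosis genes given below, the medians were -0.05 and 0.13 in G34R and 0.24 and 0.40 in G34W. The gap in G34R was thus smaller in those lists. Between the lines both of their medians were 0.27, so the gap of 0.19 was not seen there.

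The difference between the S-phase and mitotic genes of the 43 also stood in single libraries. The summed level of the S-phase genes was 201, 203 and 212 TPM in G34R, 278, 278 and 280 TPM in G34W and 228, 210 and 215 TPM in wild type, so that G34R and wild type overlapped and G34W was apart. The summed level of the mitotic genes was 162, 173 and 173 TPM in G34R, 193, 196 and 193 TPM in G34W and 135, 135 and 125 TPM in wild type, with no overlap between any 2 groups. The summed S-phase level per summed mitotic level was 1.24, 1.18 and 1.23 in G34R, 1.44, 1.42 and 1.45 in G34W and 1.69, 1.56 and 1.72 in wild type. This ratio within a library does not depend on the scaling between libraries, and the 3 groups did not overlap in it.

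**Figure D4:**
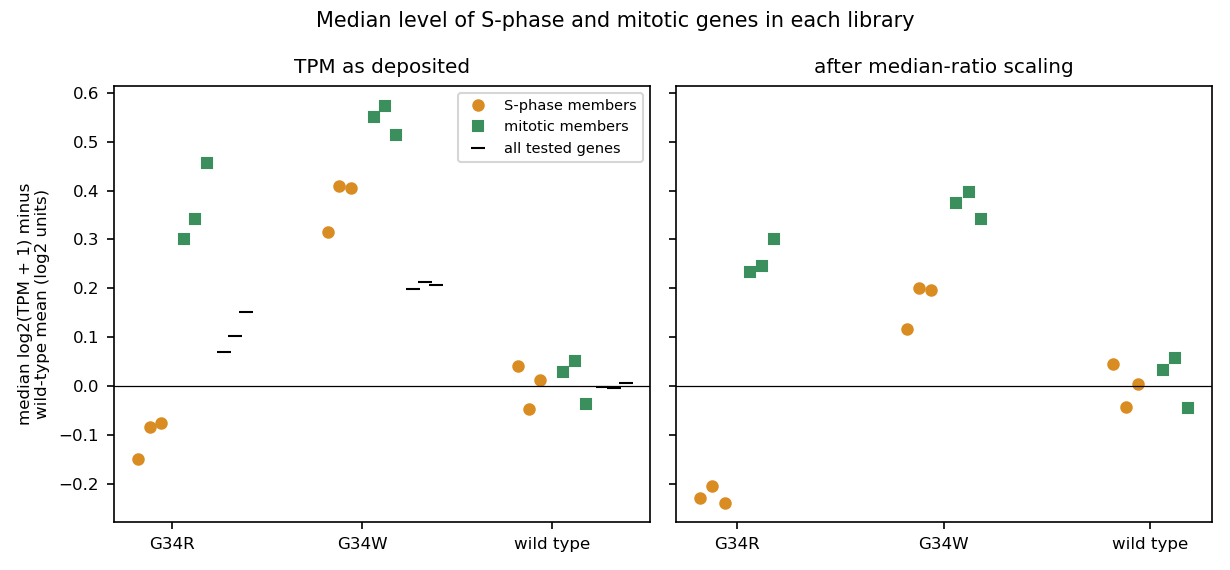
Median log2(TPM + 1) of the S-phase genes (circles) and the mitotic genes (squares) in each library, as the difference from the mean of the wild-type libraries in log2 units, for TPM as deposited on the left (dashes: all tested genes) and after median-ratio scaling on the right. Mitotic squares are above 0 in all 6 libraries of the lines in both panels, while S-phase circles are below 0 in G34R and above 0 in G34W.

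By the calls on the deposited scale, 14 mitotic genes were higher in both lines, 8 were called in G34W and not in G34R, and AUR2 was lower in G34W. Over all genes 34.6% were called higher in G34R and 44.8% in G34W. Joint calls over all genes were not counted, so no background stands beside these joint counts. Of the 8 (CDKB1;2, CDKB2;1, CYCB1;4, CYCA1;1, CYCA2;4, CDC20.1, KNOLLE and MAP65-3), CDKB2;1, CYCA1;1 and CDC20.1 also differed between the lines by the direct test, and the other 5 did not pass it. Of the S-phase genes, 9 were called in G34W and not in G34R, namely MCM2 to MCM7, CDT1A, PCNA1 and TSO2, and all 9 passed the direct test. PCNA2 was called higher in both lines, and CDC45, RNR2A, E2FA, E2FB, CYCA3;1 and CYCA3;2 were called in neither. The 13 mitotic genes with an MSA core had medians of 0.37 in G34R and 0.53 in G34W, and the 10 without one 0.31 and 0.56.

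**Figure D5:**
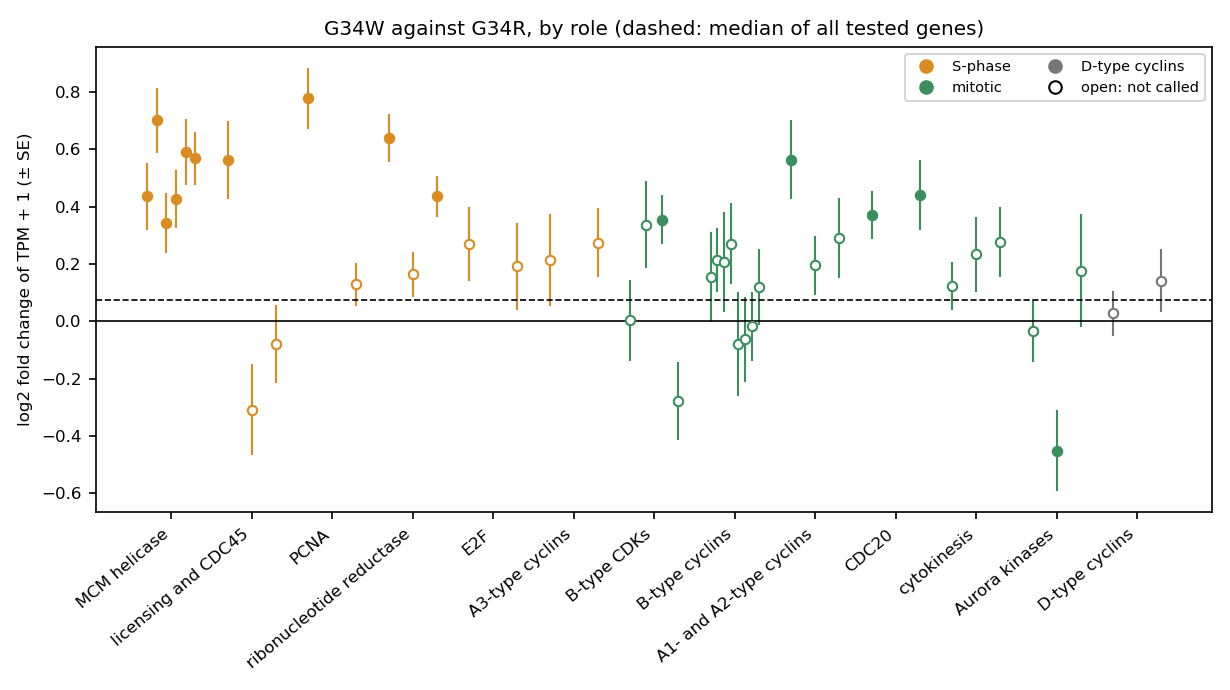
Log2 fold change of TPM + 1 with its SE in G34W against G34R for each gene, grouped by role on the horizontal axis; filled points passed an adjusted p of 0.05 and the dashed line is the median of all tested genes (0.07). The 6 MCM points are all filled and above the dashed line, and the 8 B-type cyclin points are all open and lie around the dashed line.

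Other genes of the same pathways were counted from lists drawn up for the purpose. Of 20 other replication genes (origin recognition, GINS, polymerases and their loaders) 0 were called in G34R by limma, 8 higher and 1 lower in G34W, and 5 higher and 0 lower in G34W against G34R. Their medians were -0.05, 0.24 and 0.27, against 0.10, 0.21 and 0.07 for all genes. Over all genes 34.6% were called higher in G34R, 44.8% in G34W and 21.5% between the lines, so the shares of these genes called higher were below the background in both lines and near it between them. Of 26 other mitosis genes 7 were higher in G34R, 18 in G34W, and 7 higher and 1 lower between the lines, with medians of 0.13, 0.40 and 0.27; the share called higher was below the background in G34R, above it in G34W and near it between the lines. Of 31 cell cycle regulators 10 were higher and 3 lower in G34R, 12 higher and 3 lower in G34W, and 4 higher and 2 lower between the lines, with medians of 0.14, 0.23 and 0.08; the share called higher was near the background in G34R and below it in G34W and between the lines.

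Of these genes the 6 with the smallest adjusted p were 3xHMG-box2, KRP1, TOPII, CKS2, MAP65-2 and MAD2. 3xHMG-box2 (AT4G23800), a protein of mitotic chromosomes, had 22.5, 21.2 and 24.9 TPM in G34R, 33.3, 31.5 and 28.7 TPM in G34W and 17.99, 14.3 and 16.4 TPM in wild type (0.47 ± 0.09 in G34R, adjusted p = 0.000334, and 0.90 ± 0.09 in G34W, adjusted p = 3.19e-07). TOPII (AT3G23890), the topoisomerase that untangles chromosomes, had 10.4, 11.4 and 12.4 TPM in G34R, 14.7, 15.8 and 15.8 TPM in G34W and 9.05, 8.21 and 8.44 TPM in wild type (0.37 ± 0.09, adjusted p = 0.00355, and 0.78 ± 0.09, adjusted p = 2.79e-06). In both genes the groups were apart, with G34W highest and wild type lowest.

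KRP1 (AT2G23430), an inhibitor of cyclin-dependent kinases, had 22.98, 22.6 and 21.97 TPM in G34R, 30.5, 28.5 and 28.2 TPM in G34W and 34.5, 34.3 and 35.7 TPM in wild type (-0.61 ± 0.06 in G34R, adjusted p = 5.14e-07, and -0.25 ± 0.06 in G34W, adjusted p = 0.00244). It was lower in both lines, and lowest in G34R. CKS2 (AT2G27970), a subunit that docks on these kinases, had 18.2, 19.8 and 21.8 TPM in G34R, 19.9, 16.8 and 21.7 TPM in G34W and 11.6, 13.3 and 13.0 TPM in wild type (0.62 in G34R, adjusted p = 7.38e-05, and 0.58 in G34W, adjusted p = 0.000122).

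MAP65-2 (AT4G26760), a microtubule bundler, had 15.1, 17.6 and 15.3 TPM in G34R, 16.8, 17.4 and 16.5 TPM in G34W and 12.3, 10.4 and 11.3 TPM in wild type (0.46, adjusted p = 0.000397, and 0.54, adjusted p = 9e-05). MAD2 (AT3G25980), of the spindle checkpoint, had 15.2, 13.3 and 15.5 TPM in G34R, 10.8, 11.5 and 11.3 TPM in G34W and 7.90, 9.35 and 10.5 TPM in wild type (0.62, adjusted p = 0.000129, and 0.26, adjusted p = 0.0474). The wild type was apart from both lines in these 3 genes, and MAD2 was the 1 of the 6 called lower in G34W than in G34R (-0.36, adjusted p = 0.0156).

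Some regulators above the 2 waves were picked for their role, after their values were seen. They come from the 31 cell cycle regulators tested, of which 12 were called higher in G34W against a background of 44.8%. In G34R 3 of the 31 were called lower, against a background of 16.5%. E2FC, DPA, DPB, DEL1, MYB3R3 and MYB3R5 of the same list are not described singly, so the genes named here do not stand for the list. RBR1 (AT3G12280), which holds back E2F, had 18.1, 18.6 and 22.2 TPM in G34R, 24.9, 25.9 and 25.4 TPM in G34W and 25.6, 25.2 and 23.3 TPM in wild type. It fell by 0.32 ± 0.08 in G34R (adjusted p = 0.00334) and gave 0.04 ± 0.08 in G34W (adjusted p = 0.699), with 0.36 ± 0.08 in G34W against G34R (adjusted p = 0.00268). MYB3R1 (AT4G32730) and MYB3R4 (AT5G11510), which bind the MSA element, gave 0.14 and 0.28 without a call in G34R and 0.43 and 0.58 in G34W (adjusted p = 0.005 and 0.0027).

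Markers of other cell types moved with these groups, and their part in the results was not tested. All 7 root hair markers and all 5 root endodermis markers were higher in both lines, with summed levels of 51.2 to 62.9 TPM and 91.3 to 112 TPM in G34R, 41.6 to 47.3 TPM and 82.7 to 85.9 TPM in G34W, and 14.4 to 16.5 TPM and 37.1 to 41.8 TPM in wild type. Of the 4 stomatal lineage markers 3 were lower in G34R and 1 in G34W, and they summed to 26.6 to 32.2 TPM in G34R, 33.2 to 39.4 TPM in G34W and 42.2 to 43.1 TPM in wild type. The 3 young leaf growth markers summed to 26.8 to 31.1 TPM in G34R, 33.2 to 34.03 TPM in G34W and 24.3 to 26.5 TPM in wild type, with 1 and 2 of the 3 called higher in G34R and G34W. The 5 shoot meristem markers summed to 33.6 to 37.3 TPM in G34R, 39.97 to 43.5 TPM in G34W and 42.2 to 45.9 TPM in wild type, and the 5 root meristem markers to 42.9 to 48.0 TPM in G34R, 50.4 to 53.8 TPM in G34W and 45.8 to 50.1 TPM in wild type.

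The defining meristem genes were scarce: WUS was listed at 0 in all 6 libraries of the lines and CLV3 in all 3 of the wild type, and PLT1, PLT2 and WOX5 lay under the filter. Of the 5 shoot meristem markers 3 were tested, and 2 were lower in G34R, while 1 was higher and 1 lower in G34W. Of the 5 root meristem markers 2 were tested, and 1 was lower in G34R and 0 changed in G34W. All 5 loci of the replication-coupled histone H3.1, near-identical copies whose transcripts are made in S phase, were higher in both lines, with summed levels of 602 to 652 TPM in G34R, 743 to 799 TPM in G34W and 432 to 452 TPM in wild type. Of the 3 leaf photosynthesis markers 2 were lower in each line, and the other, RBCS1A, was called higher in G34W. Of the H3.1 loci 4 of the 5 were called higher in G34W than in G34R. Their median change from wild type was 0.44 in G34R and 0.88 in G34W, against 0.35 and 0.56 for the mitotic genes. In G34R the H3.1 loci thus did not trail the mitotic genes, unlike the 18 S-phase genes.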

How the data were processed

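Messenger RNA of 9 seedling libraries was sequenced, and TPM per gene were made and deposited by the authors as 1 table over all libraries. The TAIR10 build, the aligner HISAT2 2.1.10, the read trimmer fastp 0.20.1 and DESeq2 1.26.0 are named, per the submitters' processing notes. Which tool counted reads, and whether by strand, is not given in the sources used here.

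From these TPM, genes averaging 1 TPM or more were kept, log2(TPM + 1) was fitted with limma 3.58.1 in R 4.3.3 (all 9 libraries in 1 model with 3 groups, mean-variance trend, two-sided), and p-values were adjusted by Benjamini-Hochberg over all 18544 genes at 0.05. The fit was tested on simulated data in which a small set of genes was changed, up and down alike. The simulation held no shift of the median gene, so it does not bear on the choice of scaling. Converted with gene spans, TPM gave whole reads (within 1e-06) for nearly all genes, which gave 12861968 to 14699586 reads per library; 3 reads in a transcript of 1 kb correspond to 0.422 to 0.495 TPM, a limit of counting error only. As TPM are not counts, no count test was run. Promoters, gene overlaps and coding identities were read from RefSeq's TAIR10.1 by locus identifier.

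The 43 genes, the other lists and the tests were chosen with earlier results of these data known. Values in every library are given for the 16 called genes of smallest adjusted p and for CDKB1;1, CYCB1;1, KNOLLE, PCNA1, MCM2, CDT1A, E2FA, RNR1 and CYCD3;1, and for the 6 other cell cycle genes of smallest adjusted p against wild type (AUR2, CDC6, RBR1 and the MYB3R genes were added after their values were seen). Of 23 other replication genes 21 were used, since POLD1 and RNR2B could not be matched by name or locus. Alternatives were other pseudocounts, filters, scalings, a fit of 2 groups, no trend, a replicate block and each library left out.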

Additional observations from a re-analysis of the deposited data

Results flagged for a closer look

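The difference between the 2 lines was tested directly, by the G34W against G34R contrast of limma over all genes (n = 3 libraries each), and 15 of the 43 genes passed it. Of all genes tested 21.5% were called higher and 11.8% lower in this contrast. The share of the 43 called in either direction was thus near that of all genes. The log2 differences were 0.44 for MCM2, 0.70 for MCM3, 0.34 for MCM4, 0.43 for MCM5, 0.59 for MCM6 and 0.57 for MCM7. Among the other S-phase genes they were 0.56 for CDT1A, 0.78 for PCNA1, 0.64 for RNR1 and 0.44 for TSO2. Among the mitotic genes they were 0.35 for CDKB2;1, 0.56 for CYCA1;1, 0.37 for CDC20.1, 0.44 for CDC20.2 and -0.45 for AUR2. In each of the 15 the 3 libraries of one line did not overlap those of the other. That follows largely from their choice by a test on the same libraries. Genes without a call, among them CDC6, E2FA, CYCA3;2, CDKB1;2, CDKB2;2 and MAP65-3, did not overlap between the lines either. The share over all genes was not counted.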

How the results depend on the processing

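No gene of the 43 changed the direction of a call under the alternatives tried. In G34R against wild type the 16 genes called higher became 9 with a filter of 5 TPM (29 of the 43 tested), 10 with median-ratio scaling, 5 with quantile normalization, and 10 to 16 with a library left out; the 1 called lower became 7 with either scaling, 3 without the mean-variance trend, and 0 to 2 with a library left out. The S-phase median minus the mitotic median was -0.35 there with the 5 TPM filter and -0.48 to -0.40 with a library left out. In G34W against wild type the 34 called higher became 22 and 21 with the 2 scalings and 31 to 34 with a library left out, the 2 called lower became 1 with the 5 TPM filter, and the gap of medians was -0.26 with a pseudocount of 0.1, -0.10 with the 5 TPM filter and -0.20 to -0.14 with a library left out. In G34W against G34R the 14 called higher ranged from 13 to 16 and the 1 called lower from 0 to 1 with a library left out, the second becoming 2 without the trend, and the gap of medians ranged from 0.17 to 0.23. The fewer tested genes account for the smaller counts under the 5 TPM filter in part; otherwise the cause was not tested.

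The replicate numbers of the labels were tried as a replicate block. Deviations of same-numbered libraries correlated at -0.023 to 0.041. Whether libraries of the same number share a sowing or a batch is not given by the labels. With the block 15, 34 and 14 genes were called higher in the 3 comparisons, and HINKEL in G34R was the call lost (adjusted p = 0.0534).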
